A study of Homo sapiens with 12 samples.

Results

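The 10 genes described here encode the cyclin D machinery of the restriction point: the D cyclins CCND1, CCND2 and CCND3, their kinase partner CDK6, the CDK inhibitors CDKN2A, CDKN2B, CDKN2C and CDKN1B, and the pocket proteins RB1 and RBL1. They were chosen by gene symbol and were represented by 21 of the 41000 gene probes (10 of 30238 gene names) on a whole human genome array. The RNA came from Rh30, an established alveolar rhabdomyosarcoma (ARMS) cell line that carries the PAX3-FKHR (PAX3-FOXO1) fusion, in 3 cultures: untransfected parental Rh30 grown without puromycin (WT), an Rh30 control clone with a nontargeting shRNA (CON), and a single PAX3-FKHR knockdown clone (KD1). Both shRNA cultures were puromycin-selected clones from a retroviral vector, kept at 1 μg/mL puromycin, and all cells were grown for 24 h. Each of the 3 comparisons (KD1 vs CON, KD1 vs WT, WT vs CON) had 2 biological replicates, each hybridized as a dye-swap pair, so that 12 arrays held 6 RNA extracts. Because KD1 and CON were each 1 clone, the knockdown and the clone cannot be told apart. Fewer cells that express a gene and less RNA per cell cannot be told apart in RNA from whole cultures either.

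In proliferating cells, D cyclins bind CDK4 or CDK6 and start the phosphorylation of RB1 and its relatives, which releases E2F factors and allows the genes of DNA replication to be transcribed. The INK4 proteins, to which CDKN2A, CDKN2B and CDKN2C belong, bind CDK4 and CDK6 and keep D cyclins from activating them. The CIP/KIP protein CDKN1B (p27) inhibits CDK2 complexes. In muscle precursors the same machinery governs the withdrawal from the cell cycle that goes with differentiation, and ARMS cells express myogenic factors while they continue to divide.

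A log2 ratio here is the processed signal of the first culture named over that of the second, as a mean over a probe's spots and over a dye-swap pair. A scaled level is the log2 processed signal of an RNA minus the 75th percentile of all gene probes in the same channel, averaged over the 4 arrays of an extract. It serves to compare the same probe between extracts and not one gene with another. Each gene is described by its brightest probe unless another is named. Between 71.1% and 73.6% of spots were well above background in Cy3 and between 64.4% and 67.8% in Cy5, and no spot was saturated. Precision is limited by how few RNA extracts there were, as the 4 arrays of an extract are repeats of the same RNA. Where extracts of 2 cultures do not overlap, or a ratio has 1 sign on every array, this describes the values only. The share of all genes with such an order is not given here. Replicate ratios on opposite sides of 0 were found in 28.5% of all genes tested for KD1 vs CON, 43.5% for KD1 vs WT and 39.5% for WT vs CON. Every one of the 21 probes was well above background on all 8 arrays of each culture. The direct KD1 vs CON ratio of the 10 genes differed from the sum of KD1 vs WT and WT vs CON by a median of 0.05 and at most 0.30 (20 values), beside a median of 0.06 over all genes tested.

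No member passed the adjusted threshold of 0.05 in any comparison in the main limma fit, which shares 1 estimate of spread among the 3. CCND1 was, however, 2.45-fold lower in KD1 than in CON with closely matching replicates. By limma on the brightest probe, 0 of 10 were called for KD1 vs CON, where 1.93% of all genes tested were called, 0 of 10 for KD1 vs WT (1.22% of genes) and 0 of 10 for WT vs CON (1.55% of genes). Of the single probes, 0 of 20 tested were called for KD1 vs CON, 0 of 21 for KD1 vs WT and 0 of 21 for WT vs CON, where 1.81%, 1.09% and 1.42% of all probes were called. An unadjusted p under 0.05 was reached by 1 gene for KD1 vs CON (CCND1), 2 for KD1 vs WT (CDKN2B and CDKN2C) and 1 for WT vs CON (CDKN2B), while 17.2%, 17.2% and 16.5% of all probes reached it. Across 10 other fits per comparison the number of members called was again 0, except that a fit of KD1 vs CON alone called CCND1 (adjusted p = 0.0400 in limma), and between 1 and 3, 1 and 2, and 0 and 3 members had an unadjusted p under 0.05. By the criteria of at least 2-fold in both KD1 comparisons with one direction on all 8 arrays, 0 of 10 members were selected, beside 1.52% of 15714 genes. The median of the 10 mean ratios was 0.10 for KD1 vs CON, -0.07 for KD1 vs WT and 0.17 for WT vs CON, against -0.02, 0.00 and -0.03 for all genes tested.

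**Figure D1:**
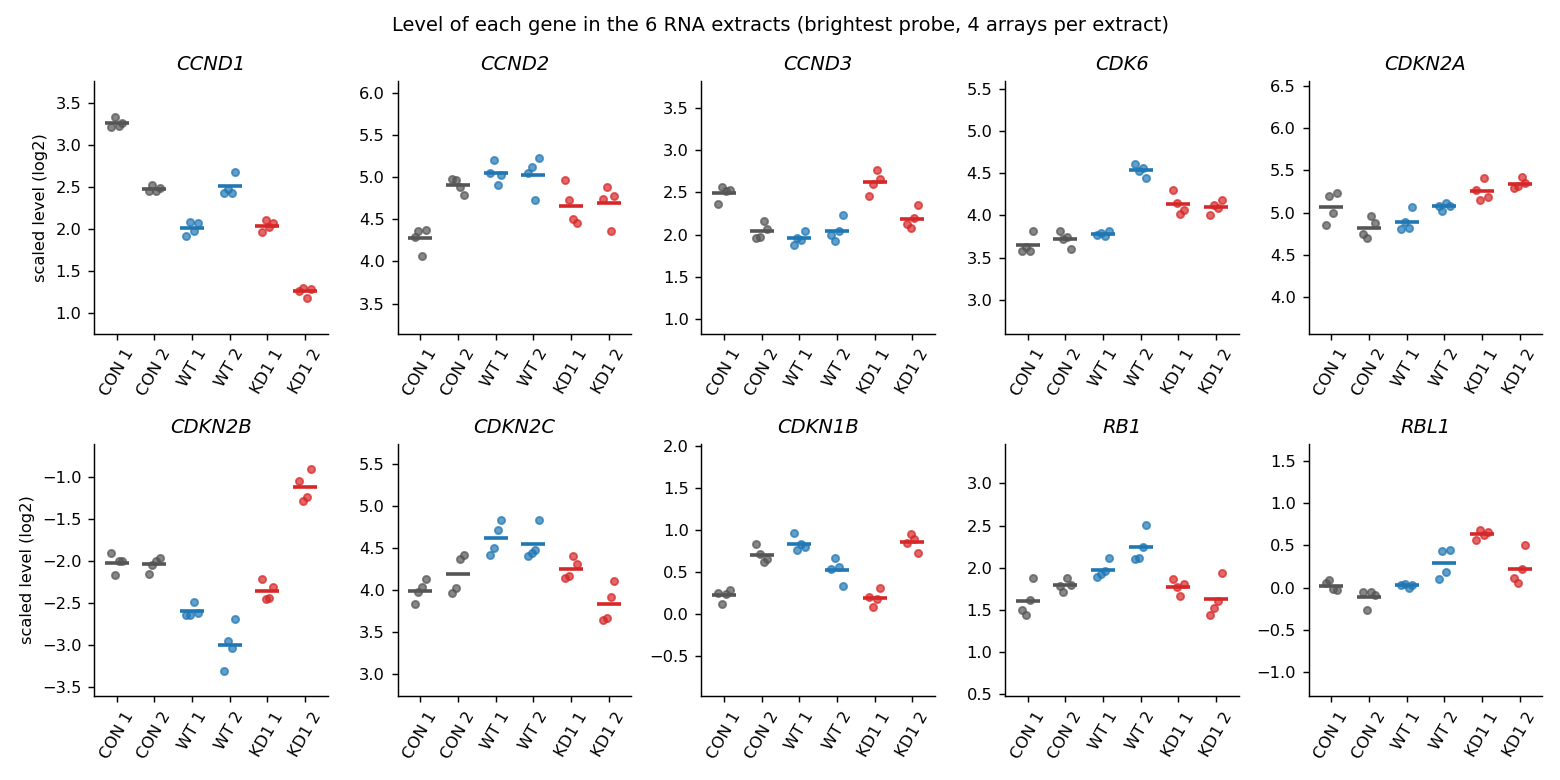
Scaled level (log2) of the brightest probe of each of the 10 genes in the 6 RNA extracts, with CON in grey, WT in blue and KD1 in red. Points are the 4 arrays of an extract and bars are their means. All panels span 3 log2 units. CCND1 lies at 3.25 and 2.48 in CON and at 2.04 and 1.26 in KD1, and CDKN2B stands highest in KD1 replicate 2 at -1.13.

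CCND1 encodes cyclin D1, the D cyclin that growth factor signaling raises most directly. Its scaled level was 3.25 and 2.48 in the CON replicates, 2.01 and 2.50 in WT, and 2.04 and 1.26 in KD1. Both KD1 extracts lay below both CON extracts, whereas the WT extracts overlapped those of each other culture. The means were 2.86 ± 0.55 (SD, n = 2) in CON, 2.26 ± 0.35 in WT and 1.65 ± 0.55 in KD1. Neighbours in this order did not differ beyond their spread, and neither replicate alone had this order. These SDs leave out the pairing of extracts by replicate. The KD1 vs CON ratio was -1.30 and -1.28 in the replicates, a mean of -1.29 ± 0.02 (SD, n = 2), and was below 0 on all 4 arrays. The limma 95% interval of this difference was -2.06 to -0.52, with an unadjusted p of 0.00504 and an adjusted p of 0.108. Over the fits the adjusted p ranged from 0.0400 to 0.214. As the main fit shares 1 estimate of spread, the limma interval and adjusted p of 0.108 also carry the CCND1 replicate gaps with WT. The SD of the replicates was 0.91 for KD1 vs WT and 0.88 for WT vs CON. Among all genes tested for KD1 vs CON, 2.36% had a mean at least this far from 0.

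The comparisons with parental cells did not show one value for CCND1. In KD1 vs WT the replicates were 0.01 and -1.28 (adjusted p = 0.385 in limma). In WT vs CON they were -1.27 and -0.02 (adjusted p = 0.388). In replicate 1, therefore, WT and KD1 were at one level and CON stood above both, and in replicate 2, WT and CON were at one level and KD1 stood below both. A gap between replicates at least as large was found in 7.02% of genes for KD1 vs WT and in 4.49% for WT vs CON. In scaled levels, CON and KD1 were each higher in replicate 1 than in replicate 2, by 0.78 and 0.78, and WT was lower in replicate 1 by 0.49. The WT vs CON arrays of both replicates shared a slide, but the KD1 arrays of each replicate had a slide of their own, so slide and replicate cannot be told apart for KD1.

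The other CCND1 probes gave the same picture. The files place A_23_P202837, the brightest, on chromosome 11 of NCBI36 from 69177414 to 69177473, A_24_P193011 from 69167820 to 69167879 and A_24_P124550 from 69176451 to 69176510. No exon annotation of that build was used here. In KD1 vs CON, A_24_P193011 had -1.17 and -1.24 and A_24_P124550 had -1.10 and -1.20. In KD1 vs WT, they had 0.03 and -1.33, and 0.21 and -1.28. In WT vs CON, they had -1.16 and -0.11, and -1.35 and -0.13. All 6 replicate values of each probe had the sign of the brightest probe, with a largest difference of 0.13 and 0.21. The probes share the RNA extracts and are not replicates of the culture.

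**Figure D2:**
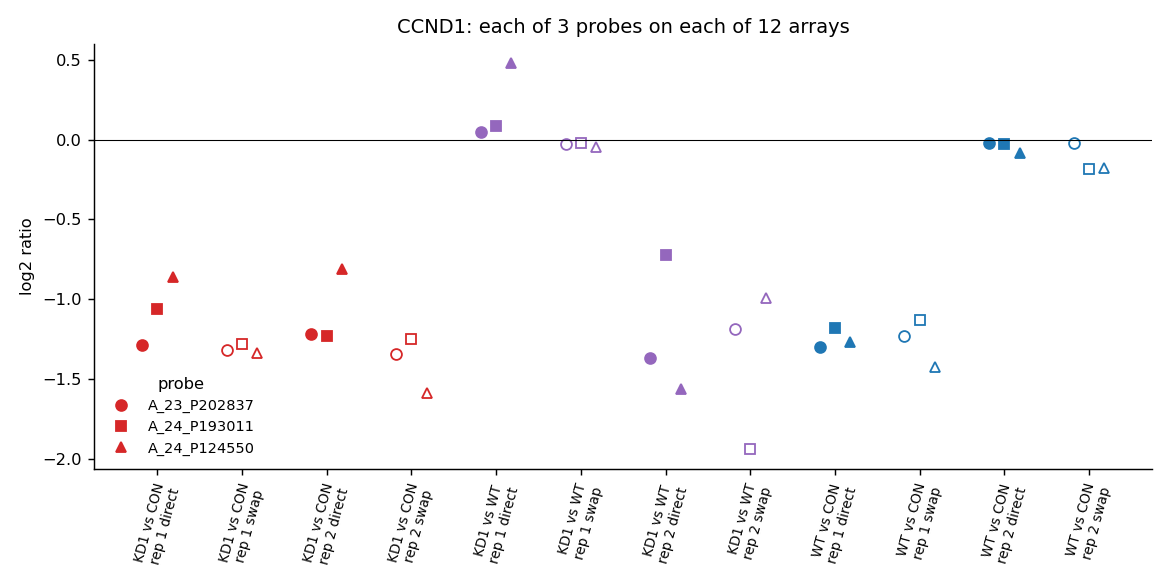
Log2 ratio (vertical axis) of the 3 CCND1 probes on each of the 12 arrays, grouped by comparison, replicate and dye orientation. Filled symbols are the direct arrays and open symbols the dye-swapped ones, and marker shape gives the probe. All KD1 vs CON points lie below 0, while KD1 vs WT is near 0 in replicate 1 and WT vs CON is near 0 in replicate 2.

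CCND1 also lies in a stretch of chromosome 11 in which most genes had a KD1 vs CON ratio below 0. Of 33 tested genes within 2 Mb of its probe, 28 had a mean below 0 for KD1 vs CON, beside 8211 of all 15748 genes tested. Their median was -0.23 against -0.02 for all genes. In KD1 vs WT 26 of 35 were below 0 (median -0.20), beside 8814 of all 17833 genes. For WT vs CON 21 of 40 were (median -0.04), beside 10211 of all 19100. By limma, 1 neighbour was called for KD1 vs CON, 0 for KD1 vs WT and 1 for WT vs CON. CPT1A, named because the paper reports it as lowered in KD1, lies within this distance. It was tested only for WT vs CON (0.88), so the counts and medians of both KD1 comparisons leave it out. With normexp and loess the median was -0.16 for KD1 vs CON and -0.19 for KD1 vs WT, and with median centring it was -0.23 and -0.18. The WT vs CON median turned to 0.0073 and 0.0090 under these. The neighbours' median was nearer to 0 than the CCND1 ratio for KD1 vs CON, but single neighbours were as low as CCND1. They ranged from -1.45 (AK124882) to 0.16, with SHANK2 at -1.29 and the nearest, ORAOV1, at -0.71. These were named after their values were seen. The part of the region in the CCND1 value was not tested. Around the other members the KD1 vs CON medians of tested genes within the same distance lay on both sides of 0. The median was 0.27 around CDKN1B, with 5 of 34 genes below 0 and 3 called, while CDKN1B itself had 0.09. Around CDKN2C it was 0.21, with 4 of 22 below 0, while CDKN2C had -0.11. It was 0.13 for the 26 genes around CCND2, 0.05 for the 56 around CCND3, 0.04 for the 21 around CDK6, -0.06 for the 21 around RB1, and -0.09 for the 9 around each of the adjacent CDKN2A and CDKN2B.

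**Figure D3:**
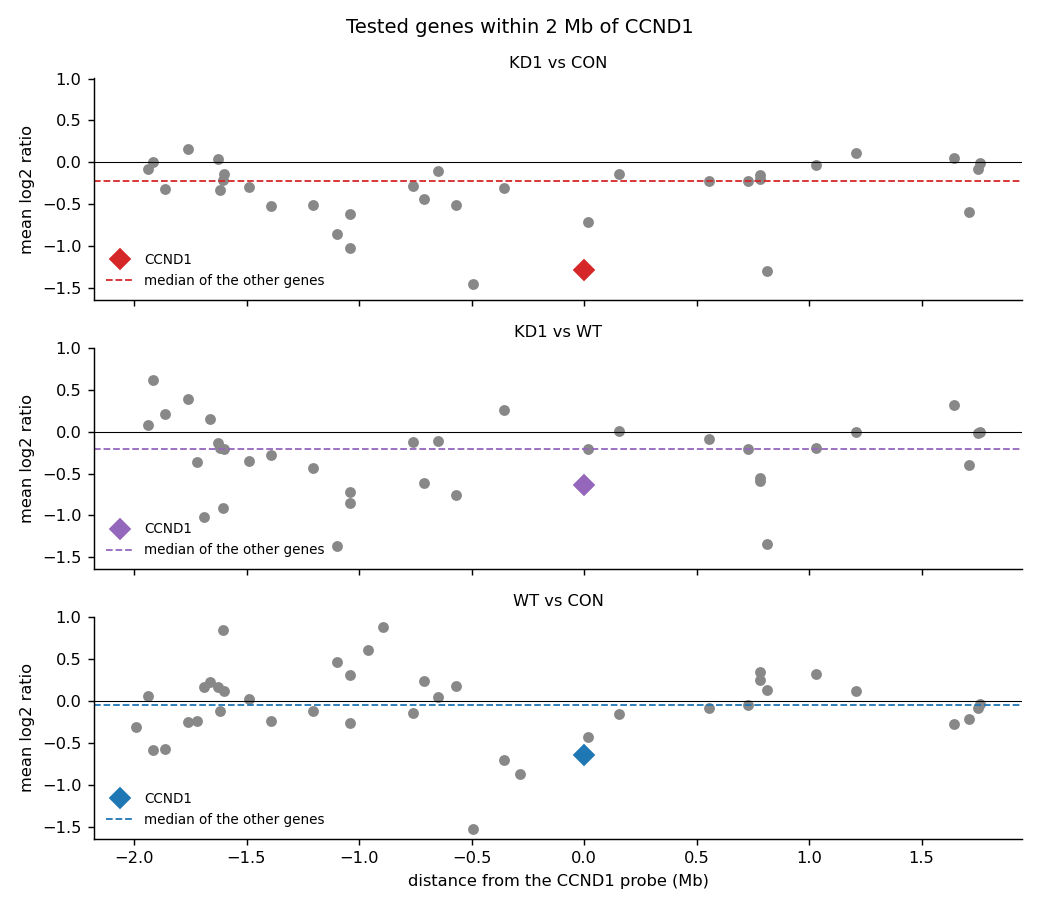
Mean log2 ratio of each tested gene against its distance (Mb) from the CCND1 probe, for the 3 comparisons. Grey points are other genes, the diamond is CCND1 and the dashed line is the median of the other genes, which lies at -0.23 for KD1 vs CON, -0.20 for KD1 vs WT and -0.04 for WT vs CON.

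CCND2 encodes cyclin D2, another D cyclin that myogenic cells use. The scaled level was 4.27 and 4.90 in CON, 5.05 and 5.03 in WT, and 4.66 and 4.69 in KD1, so that KD1 lay between the CON replicates and WT lay above every other extract. The ratio was 0.36 and -0.32 for KD1 vs CON, -0.53 and -0.34 for KD1 vs WT, and 0.80 and -0.05 for WT vs CON. The replicates went in opposite directions for KD1 vs CON and for WT vs CON. On all 4 KD1 vs WT arrays the ratio was below 0, with a mean of -0.44 ± 0.14 (SD, n = 2) and an adjusted p of 0.431 in limma. The dimmer CCND2 probes did not share this. A_24_P270235 had -0.15 and -0.12 and A_23_P139881 had 0.29 and -0.18 for KD1 vs WT, and the latter differed from the brightest probe by up to 1.06. In WT vs CON A_24_P270235 had 0.27 and -0.43, and A_23_P139881 had -0.26 and -0.55, below 0 on all 4 arrays. On A_23_P139881 both WT extracts (2.10 and 2.33) lay below both CON extracts (2.49 and 2.77). The files place the 3 probes at separate positions on chromosome 12 between 4258280 and 4284360, and which transcripts they share was not determined here.

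CCND3 encodes cyclin D3, the D cyclin that accumulates when myoblasts differentiate. In scaled level it stood at 2.49 and 2.04 in CON, 1.96 and 2.05 in WT, and 2.62 and 2.19 in KD1. The KD1 extracts lay above both WT extracts, and CON overlapped each of them. The ratio was 0.07 and 0.15 for KD1 vs CON, 0.62 and 0.14 for KD1 vs WT, and -0.52 and -0.05 for WT vs CON. The KD1 vs WT mean of 0.38 ± 0.33 (SD, n = 2) had an adjusted p of 0.423 in limma. The dimmer probe A_23_P214464 had 0.78 and -0.04 for KD1 vs WT. As FOXO1 belongs to the forkhead factors, which bind the letters GTAAACA, the promoters in RefSeq (GRCh38.p14, from 250 bases before to 50 after a start site) were searched for this motif on both strands. The 14 promoters of 8 members were searched, with a single start site for RB1, and those of CCND1 and CCND2 were not analysed here. The motif was found in 1 of these 14 and in 3.42% of 35116 promoters of the same length. The match lies in the first listed CCND3 promoter (chr6:42048639-42048938, minus strand), printed below with the motif in capitals because it is the single match among these 8 members.
CCND3: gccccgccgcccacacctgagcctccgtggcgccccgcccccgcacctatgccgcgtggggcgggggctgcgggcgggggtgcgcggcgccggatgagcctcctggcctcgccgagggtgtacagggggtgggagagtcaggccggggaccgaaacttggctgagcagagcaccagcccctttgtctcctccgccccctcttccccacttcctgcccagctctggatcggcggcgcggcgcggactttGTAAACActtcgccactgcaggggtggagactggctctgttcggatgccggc
The match covers positions 249 to 255, at the start site. It is a match of letters and not a measured site. The study looked for PAX3-FKHR sites as paired-domain and homeodomain motifs, and those motifs were not searched here.

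CDK6, the kinase partner of the D cyclins beside CDK4, had a scaled level of 3.65 and 3.72 in CON, 3.78 and 4.54 in WT, and 4.13 and 4.10 in KD1. Both KD1 extracts lay above both CON extracts, and the WT extracts lay on either side of KD1. The ratio was 0.44 and 0.39 for KD1 vs CON, with an average of 0.41 ± 0.03 (SD, n = 2) that was above 0 on all 4 arrays. Its limma interval ran from -0.12 to 0.95, with an adjusted p of 0.417. In WT vs CON it was 0.18 and 0.81, above 0 on all 4 arrays (adjusted p = 0.349), and for KD1 vs WT the replicates opposed each other at 0.30 and -0.32. The dimmer probe A_23_P168651 had 0.60 and 0.37 for KD1 vs CON and -0.01 and 0.69 for WT vs CON.

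**Figure D4:**
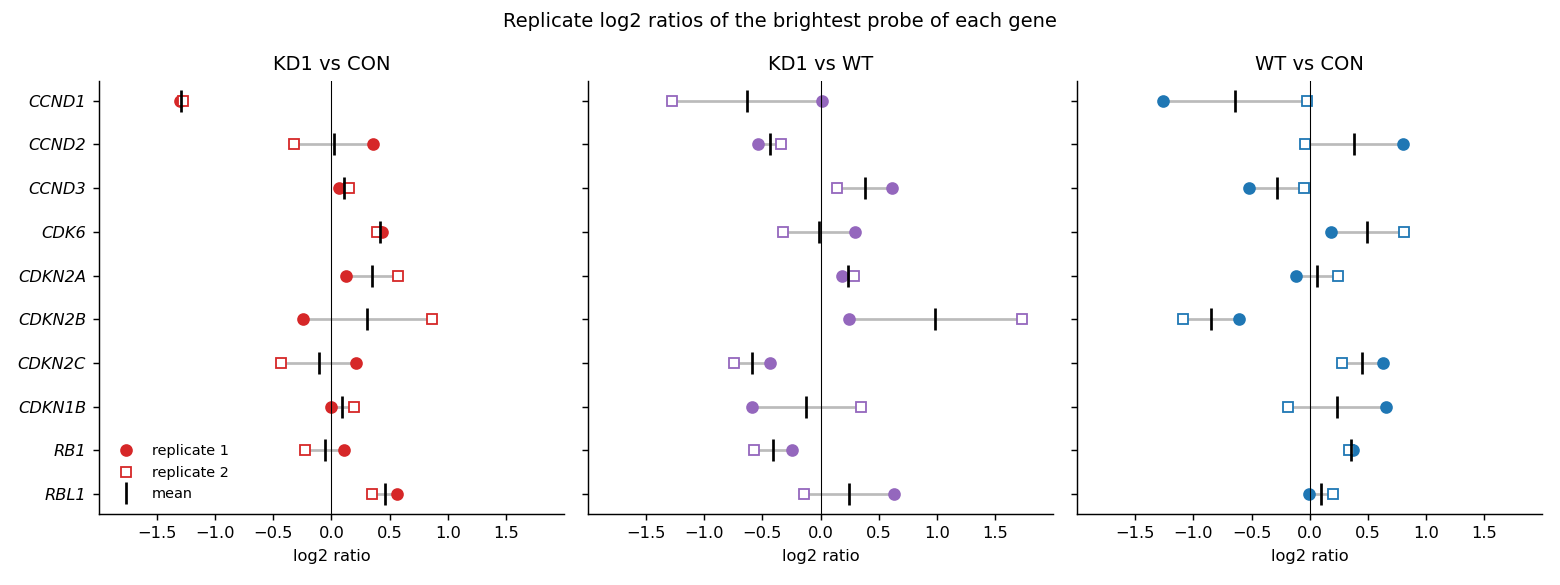
Replicate log2 ratios (horizontal axis) of the brightest probe of each gene in the 3 comparisons. Circles are replicate 1, squares replicate 2 and ticks their mean. The CCND1 replicates coincide near -1.3 for KD1 vs CON and lie apart in the other comparisons, and the CDKN2B replicates lie farthest apart for KD1 vs WT, at 0.24 and 1.73.

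Among the INK4 inhibitors, CDKN2B had the widest range of ratios, but its replicates did not match. CDKN2B encodes p15, which TGF-beta signaling induces, and lies beside CDKN2A on chromosome 9. The extracts had scaled levels of -2.02 and -2.04 in CON, -2.60 and -3.00 in WT, and -2.35 and -1.13 in KD1. Both WT extracts lay below every other extract, and KD1 lay on either side of CON. In KD1 vs WT the ratio was 0.24 and 1.73, a mean of 0.99 ± 1.05 (SD, n = 2), above 0 on all 4 arrays. Its unadjusted p was 0.0251 and its adjusted p 0.219 in limma, with an interval from 0.16 to 1.81. In WT vs CON it was -0.61 and -1.09, a mean of -0.85 ± 0.34, below 0 on all 4 arrays (unadjusted p = 0.0436, adjusted p = 0.287 in limma). In KD1 vs CON the replicates opposed each other at -0.25 and 0.86. Gaps between replicates as large as for KD1 vs CON and KD1 vs WT were found in 3.09% and 4.75% of genes. The second probe A_23_P216812, which was not tested for KD1 vs CON because its signal did not pass the negative control limit on every array, had -0.12 and 0.68 for KD1 vs CON, 0.27 and 1.49 for KD1 vs WT, and -0.59 and -0.64 for WT vs CON.

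CDKN2A encodes p16 and, from another reading frame, ARF. The files place both of its probes near the end of the gene, at 21958039 to 21958098 and 21957780 to 21957839 on chromosome 9, and the transcripts share their last exons, so that p16 and ARF were not separated. Scaled levels were 5.07 and 4.82 in CON, 4.89 and 5.08 in WT, and 5.26 and 5.34 in KD1. Both KD1 extracts lay above the other extracts. The ratio was 0.13 and 0.58 for KD1 vs CON and 0.18 and 0.29 for KD1 vs WT, above 0 on all 8 arrays. The means were 0.35 ± 0.32 (SD, n = 2) and 0.24 ± 0.07, with adjusted p of 0.446 and 0.621 in limma. The second probe A_23_P43484 had -0.05 and 0.30 for KD1 vs CON and 0.20 and 0.09 for KD1 vs WT.

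CDKN2C, which encodes the INK4 protein p18, was measured by a single probe. That probe stood at scaled levels of 3.995 and 4.19 in CON, 4.62 and 4.54 in WT, and 4.26 and 3.83 in KD1. The WT extracts lay above all others, and CON and KD1 overlapped. The ratio was -0.43 and -0.74 for KD1 vs WT, a mean of -0.59 ± 0.22 (SD, n = 2), and was below 0 on all 4 arrays. Its unadjusted p was 0.0347 and its adjusted p 0.249 in limma, with an interval from -1.12 to -0.06. In WT vs CON it was 0.63 and 0.28, above 0 on all 4 arrays (adjusted p = 0.377), and for KD1 vs CON the replicates opposed each other at 0.21 and -0.43.

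CDKN1B encodes p27, an inhibitor of CDK2 complexes whose transcription FOXO factors raise in many cells. Scaled levels of p27 transcript were 0.23 and 0.71 in CON, 0.84 and 0.52 in WT, and 0.20 and 0.85 in KD1. The 3 cultures overlapped. The ratio was -0.01 and 0.19 for KD1 vs CON, -0.59 and 0.35 for KD1 vs WT, and 0.65 and -0.19 for WT vs CON, with opposite replicates in every comparison. The adjusted p lay between 0.733 and 0.915 in limma. The dimmer probe A_23_P204696 shared the sign of the brightest in 2 of 6 replicate values.

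RB1 encodes the retinoblastoma protein. Its scaled level was 1.60 and 1.79 in CON, 1.97 and 2.24 in WT, and 1.77 and 1.62 in KD1. CON and KD1 overlapped and both WT extracts lay above them. The ratio was 0.11 and -0.23 for KD1 vs CON, -0.24 and -0.57 for KD1 vs WT, and 0.37 and 0.34 for WT vs CON. The KD1 vs WT mean of -0.41 ± 0.23 (SD, n = 2) was below 0 on all 4 arrays, with an adjusted p of 0.361 in limma. The WT vs CON mean of 0.35 ± 0.02 was above 0 on all 4 arrays, with an adjusted p of 0.447 and an interval from -0.14 to 0.84. Of the tested genes within 2 Mb of RB1 on chromosome 13, 20 of 24 were below 0 for KD1 vs WT (median -0.23) and 4 of 26 for WT vs CON (median 0.15). The second RB1 probe, A_24_P102636, had -0.02 and -0.64 for KD1 vs WT, 0.01 and 0.18 for WT vs CON, and 0.10 and -0.32 for KD1 vs CON.

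RBL1 encodes p107, a relative of RB1 whose gene is itself an E2F target. It had scaled levels of 0.02 and -0.12 in CON, 0.02 and 0.29 in WT, and 0.63 and 0.22 in KD1. Both KD1 extracts lay above both CON extracts. The ratio was 0.57 and 0.35 for KD1 vs CON, with an average of 0.46 ± 0.16 (SD, n = 2) that was above 0 on all 4 arrays. Its limma interval ran from -0.07 to 0.98, with an adjusted p of 0.355. In KD1 vs WT the replicates were 0.63 and -0.15, and for WT vs CON they were -0.01 and 0.20. The dimmer probe A_24_P276102 had 0.47 and -0.01 for KD1 vs CON. Within 2 Mb of RBL1 on chromosome 20, the median of 42 tested genes was 0.26 for KD1 vs CON, with 6 of them below 0.

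E2F-type motifs were searched in the same RefSeq promoters as TTTCCCGC, TTTCGCGC, TTTGCCGC and TTTGGCGC on both strands. A match was found in 1 of the 14 promoters of these 8 members, that of RBL1, and in 3.31% of all promoters. For RB1 the promoter searched was chr13:48476200-48476499 of GRCh38.p14, and no other RB1 start site was searched. Whether this is the main start site of RB1 was not determined here, so these counts do not cover the main RB1 promoter if it lies elsewhere. The RBL1 promoter (chr20:37095948-37096247 of GRCh38.p14, minus strand) is shown because it held 2 matches, in capitals, at positions 225 to 232 and 235 to 242 counted from its first base.
RBL1: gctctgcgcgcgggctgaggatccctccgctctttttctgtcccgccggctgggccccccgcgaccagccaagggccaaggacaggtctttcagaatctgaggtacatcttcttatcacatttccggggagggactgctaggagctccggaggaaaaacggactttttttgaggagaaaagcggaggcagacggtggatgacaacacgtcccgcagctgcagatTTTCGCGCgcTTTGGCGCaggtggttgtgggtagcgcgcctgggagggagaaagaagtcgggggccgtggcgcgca
The matches lie 26 and 16 bases before the start site and describe letters only.

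The partners of these proteins did not pass the test either. Of 39 other cyclin, CDK, E2F and RB pathway genes on the array, 0 of 37 tested were called for KD1 vs CON, 0 of 38 for KD1 vs WT and 0 of 38 for WT vs CON by limma, while 6, 3 and 2 had an unadjusted p under 0.05. A fit to single arrays with a dye effect per slide called 1 of them, CABLES1, for KD1 vs CON, and the other fits called 0. Their median ratio was -0.10 for KD1 vs CON, -0.04 for KD1 vs WT and -0.08 for WT vs CON. CDK4, the other kinase of the D cyclins, had -0.05 and -0.34 for KD1 vs CON and -0.15 and -0.26 for KD1 vs WT. CDK2, the partner of cyclin E, had 0.11 and -0.24 for KD1 vs CON and 0.14 and -0.77 for KD1 vs WT. CCNE1, which encodes cyclin E1, had 0.13 and -0.45, and -0.15 and -0.74. These kinases and cyclin E1 thus stood lower in replicate 2 than in replicate 1 of each KD1 comparison. CDKN1A, the p53-induced inhibitor p21, had 0.05 and 0.54 for KD1 vs CON and 0.13 and 0.87 for KD1 vs WT. E2F1 had 0.07 and -0.20, and 0.38 and -0.23, and RBL2, which encodes the RB1 relative p130, had -0.01 and -0.34, and -0.42 and -0.31. CDKN1C was well above background on none of the arrays and was not tested.

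E2F target genes, which carry out DNA replication, served as a readout of the pathway. Of 36 on the array, 0 were called by limma in any of the 3 comparisons, with 4, 4 and 1 at an unadjusted p under 0.05. The fit to single arrays with a dye effect per slide called 2 of them, POLA2 and RFC4, for KD1 vs CON, and the other fits called 0. The list median was -0.12 for KD1 vs CON and -0.12 for KD1 vs WT, but the replicates differed: 0.06 and -0.34 for KD1 vs CON, and 0.07 and -0.25 for KD1 vs WT. In WT vs CON the replicate medians were -0.04 and -0.06. The brightest members repeated this: the helicase subunit gene MCM7 had 0.00 and -0.36 for KD1 vs CON, thymidine kinase TK1 had 0.00 and -0.39, MCM3 had 0.10 and -0.26, and CDC45L had -0.12 and -0.56.

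**Figure D5:**
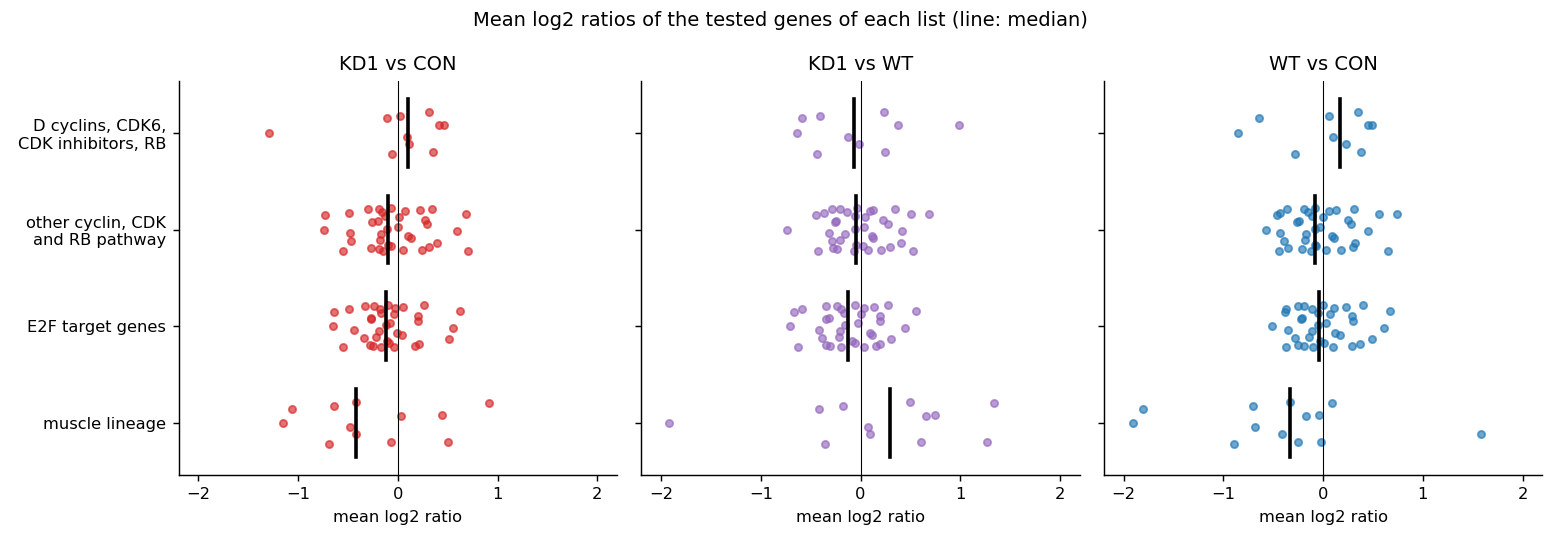
Mean log2 ratio (horizontal axis) of each tested gene of 4 lists in the 3 comparisons. Points are genes and the vertical line is the list's median. Among the 10 members, CCND1 stands apart at -1.29 for KD1 vs CON, and the medians of the pathway genes and E2F targets lie between -0.12 and -0.04 in each comparison.

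The label of the cells was checked with marker genes. Of 15 muscle lineage genes, 13 were well above background on every array, among them MYOD1, DES, ACTC1 and CHRNA1, while TFAP2B was on none. MYOD1 had 0.21 and -0.16 for KD1 vs CON and 0.01 and 0.13 for KD1 vs WT, DES had 0.19 and 0.81, and 0.27 and 1.22, ACTC1 had -0.52 and -0.87, and 0.19 and -0.01, and CHRNA1 had -0.17 and 0.04, and -0.55 and 0.20. Limma called 0 of 12 tested muscle genes for KD1 vs CON, 0 of 12 for KD1 vs WT and 2 of 13 for WT vs CON, with 4, 5 and 5 at an unadjusted p under 0.05, and the other fits called at most 1, 2 and 3. For WT vs CON normexp and loess and separate channels each called 0. The 2 were MYOG and MYL4, named after their values were seen. MYOG, the factor of terminal muscle differentiation, had -2.13 and -1.49 for WT vs CON (adjusted p = 0.0173 in limma), and MYL4 had -2.17 and -1.63 (adjusted p = 0.0136). The fit to single arrays called MYL4 and not MYOG. In KD1 vs CON, where CCND1 was lower, MYOG had -1.32 and -0.97 (adjusted p = 0.0526). The part of the differentiation state in the ratios of the cell cycle genes was not tested. Of 13 markers of other cell types, 6 were well above background on every array, including SYN1, PECAM1, CD14 and VWF, and PTPRC and ALB were on none. SYN1 had -0.06 and 0.09 for KD1 vs CON, PECAM1 had -0.63 and 0.09, CD14 had 0.14 and 0.14, and VWF, which was not tested there, had 1.01 and 2.97. Limma called 0 of the 4 markers tested for KD1 vs CON, 0 of 6 for KD1 vs WT and 0 of 6 for WT vs CON, with 0, 1 and 0 at an unadjusted p under 0.05, and the other fits called 0 as well.

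No probe of the array spans the fusion junction, and the probes for PAX3 and FOXO1 can measure the unrearranged genes. Whether these probes lie in the parts of PAX3 and FOXO1 kept in the fusion was not determined here. PAX3 had -0.39 and -0.46 for KD1 vs CON and -0.45 and -0.33 for KD1 vs WT, and FOXO1 had -0.26 and -0.58, and -0.79 and -0.41. All 8 values were below 0, with adjusted p between 0.272 and 0.432 in limma, and of the 4 means only that of FOXO1 for KD1 vs WT had an unadjusted p under 0.05 (0.0431).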

How the data were processed

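Per the labels and the study's methods, 500 ng of RNA per culture was labeled and hybridized to 2-colour whole genome arrays, read with Agilent Feature Extraction 10.5.1.1. The authors deposited, for each spot, linear intensity values (background-subtracted, and processed after lowess normalization). They also deposited log10 and log2 ratios, of which the log2 ratio per probe equals the scanner ratio within 5.35e-06. Log2 ratios were computed from the processed intensity, turned to one direction, and averaged over spots and dye-swap pairs. Positions are those of the files (NCBI36). Tested probes were those brighter, in 1 or both channels of each array of a comparison, than 99% of the 153 negative controls. Limma 3.58.1 (R 4.3.3) was fitted to the 6 replicate values. Its residual degrees of freedom were set to 2 by hand, since the comparisons share extracts, and the fits to values per extract, whose degrees of freedom were not set, are among the alternatives (CCND1 in KD1 vs CON: adjusted p = 0.166 with the replicate block and 0.214 without). Benjamini-Hochberg adjustment ran over all probes tested, with a threshold of 0.05. Intervals are limma's, at 95%. The brightest probe stood for a gene. Python 3.11.15, numpy 2.4.6, pandas 2.3.3 and matplotlib 3.10.9 were used. The fit was run on simulated data with independent errors for each extract. That run did not cover a shift shared by KD1 and CON extracts of the same number. The members and lists were chosen with earlier results of these data known. Named genes were all members, called pathway partners, fixed key partners (CDK4, CDK2, CCNE1, CDKN1A, E2F1 and RBL2), the 4 brightest genes of each other list, PAX3 and FOXO1. For each called member the 3 nearest genes were to be named, but no member was called. Alternatives changed the background correction, normalization, filter, probe summary, fit and replicates.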

Additional observations from a re-analysis of the deposited data

How the results depend on the processing

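The number of members called stayed at 0 in the 3 comparisons under normexp and loess, median centring, the series table, separate channels with no replicate block, extract values with the replicate block, single arrays with a dye effect per slide, no filter, a well-above-background filter and the mean of all probes of a gene. With each comparison fitted alone, 1 member (CCND1) was called in KD1 vs CON and 0 in the others. The selection by the 2-fold criteria stayed at 0 with a 1.5-fold threshold and with the limit from negative controls asked of 1 array. Of 300 single values refitted on both replicates, 7 changed sign, each with an adjusted p between 0.758 and 0.997 in limma: CCND2 in KD1 vs CON to -0.0046 with extract values from the loop and the replicate block and -0.19 with the mean of all probes, and in WT vs CON to -0.034 with that mean. CDK6 in KD1 vs WT changed to 0.015 with that mean and 0.078 with median centring, CDKN2A in WT vs CON changed to -0.054 with median centring, and RB1 in KD1 vs CON to 0.043 with separate channels. The replicates lay on opposite sides of 0 in 5 of 10 members for KD1 vs CON, beside 28.5% of all genes tested. For KD1 vs WT this held for 4 of 10 (43.5% of genes), and for WT vs CON it held for 4 of 10 (39.5%). Leaving out 1 replicate leaves a value with no test. Of 60 such values, 13 had the opposite sign to the mean, in 9 members, which is 1 for each opposed pair. CCND1 then ranged from -1.30 to -1.28 in KD1 vs CON, from -1.28 to 0.01 in KD1 vs WT, so that its size there rests on replicate 2, and from -1.27 to -0.02 in WT vs CON, where it rests on replicate 1. Deviations of the same replicate number correlated at 0.54 between KD1 and CON, -0.07 between KD1 and WT and -0.02 between WT and CON. Same-numbered KD1 and CON extracts thus tended to shift together, and the reason was not tested. The fit with extract values from the loop and the replicate block, which changes both the values and the block, called 161 probes in KD1 vs CON against 396. The neighbour medians under other normalizations were chosen after seeing the data. Precision is limited by how few RNA extracts and arrays there are. The cause of the changed values was not tested.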
